A study of Mus musculus with 30 samples.

Results

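The small RNAs of 35 to 49 nt in mouse serum were examined, chosen by length alone from a table that lists each unique sequence with its counts. They make up 6161 of the 21634 sequences in the table, or 28.5%, and hold 1327504 of its 115060705 counts, or 1.15%. The study compared serum of C57Bl/6J males aged 3 months that had gone through MSUS, in which pups lose their mother at unforeseeable times over the first 14 postnatal days while the mother herself is stressed, with serum of control males (CTRL). Each group has 4 libraries: CTRL replicates 1, 2, 3 and 5, and MSUS replicates 6, 7, 8 and 10. Values for single libraries are given in this order throughout. The labels give a number for each serum sample but do not say how many animals stand behind it, so the p-values measure the spread between these samples. Fragments cleaved from tRNAs are common in serum, as are pieces of 5S rRNA and other short structural RNAs. Small RNA libraries are built by joining an adapter to the 3' end of each RNA, and a read longer than its RNA runs on into that adapter until it is trimmed off.

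The libraries held 12445867 to 16733257 counts over all lengths. The table lists no sequence shorter than 15 nt or longer than 49 nt, the smallest count above 0 is 2, and the smallest sum over the 8 libraries is 8. Members were thinner than the rest of the table: the median member had 39 counts in total, and the median of the other sequences was 68. A filter of more than 20 counts in at least 4 libraries was passed by 916 members among 5513 sequences of all lengths. All 8 libraries held 2418 of the members, and 162 were found in 1 library. The 137 most abundant members together reached 0.5 of the member counts, and the top 10 held 11.5%. An unread base (N) was present in 140 members with 18859 counts.

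Lengths were unevenly filled. The 975 members of 35 to 45 nt held 143808 counts, and the 5186 members of 46 to 49 nt held 1183696 counts, or 89.2%. The length of 47 nt alone had 2392 members and 622590 counts (46.9%), and 46 nt had 1506 members and 409444 counts. The fewest members, 21, were found at 42 nt. For comparison, 28 to 31 nt held 34.6% and 32 to 34 nt held 43.6% of all counts in the table.

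Weighted by counts, the members were 15.4% A, 19.02% C, 33.1% G and 32.4% T, with a GC content of 52.4%. Those of 35 to 45 nt had a GC content of 62.1% and those of 46 to 49 nt one of 51.2%. The first base was G for 87.0% of member counts, 94.0% at 46 to 49 nt and 29.1% at 35 to 45 nt. The terminal triplet CCA was found on 33 members with 1112 counts.

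Across libraries, the members took 0.997%, 1.21%, 0.939% and 1.10% of all counts in CTRL and 1.34%, 1.29%, 1.25% and 1.05% in MSUS. MSUS replicates 6, 7 and 8 lay above each CTRL library, and MSUS replicate 10 lay within the CTRL range. The 95% counting interval of CTRL replicate 1, for example, was 0.992% to 1.00%. Such intervals cover counting error only, because reads were amplified by PCR and carry no molecular identifiers. The means were 1.06% in CTRL (SD 0.119) and 1.23% in MSUS (SD 0.129), a difference of 0.172 percentage points (exact permutation test, p = 0.114). With 4 against 4 libraries there are 70 arrangements, and 0.0286 is the smallest two-sided p they can give.

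CTRL replicate 5 stood apart from the other CTRL libraries. Its members had a GC content of 53.5%, against 52.2%, 52.2% and 52.3% in CTRL replicates 1, 2 and 3. It was also the highest CTRL library at 42, 43 and 44 nt, where it lay within the MSUS range. At these lengths, leaving it out moves the CTRL mean further below that of MSUS. The shares, ratios, GC content and the tests of single lengths, single sequences and families are therefore given with it and also without it; the most abundant members, the miRNA lists and the descriptive groups are given with it. Without CTRL replicate 5 the share of counts on members was higher in MSUS by 0.185 percentage points (exact permutation test, p = 0.143).

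GC content in MSUS was 52.0%, 52.5%, 52.0% and 52.8%, and the groups overlapped. The means were 52.5% in CTRL (SD 0.641) and 52.3% in MSUS (SD 0.418), a difference of -0.217 percentage points (exact permutation test, p = 0.686). Without CTRL replicate 5 this difference was 0.101. The log2 ratio of member counts to counts of 32 to 34 nt was -5.29, -5.44, -5.56 and -5.02 in CTRL and -5.43, -4.69, -5.34 and -4.95 in MSUS. MSUS replicates 7 and 10 were the highest, and the other MSUS libraries fell within the CTRL range. MSUS exceeded CTRL by 0.22 in this ratio (exact permutation test, p = 0.286), by 0.33 without CTRL replicate 5 (p = 0.229) and by 0.086 without MSUS replicate 7 (p = 0.571). The ratio to counts of 28 to 31 nt was -5.28, -4.53, -4.86 and -5.07 in CTRL and -4.27, -5.18, -4.69 and -5.31 in MSUS, so that MSUS held both the highest and the lowest library. The difference was 0.07 (exact permutation test, p = 0.83), and 0.03 without CTRL replicate 5. It was -0.13 without MSUS replicate 6, -0.045 without CTRL replicate 1 and 0.22 without MSUS replicate 10. At single lengths from 35 to 49 nt, 0 of 15 passed an adjusted p of 0.05 by permutation with Benjamini-Hochberg adjustment, and 0 had an unadjusted p under 0.05. Without CTRL replicate 5, 0 of 15 passed as well. This adjustment left little room: a single length at the smallest possible p would have an adjusted p of 0.429, and at least 9 lengths at that p would be needed to pass. The smallest was at 41 nt (exact permutation test, p = 0.0571, adjusted p = 0.257).

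Most members extend a shorter sequence of the same table. For 4506 members (73.1%), with 95.3% of the member counts, a sequence shorter than 35 nt was identical to their first bases, and 4417 of them contained such a sequence of 25 bases or more. These 4506 members extended 496 distinct sequences, taking for each member the longest one. The median member had 11.2% as many counts as the sequence it extended, and 991 members had more counts than it. The share of member counts on extending members was 96.1%, 96.8%, 96.7% and 95.8% in CTRL and 94.1%, 92.8%, 96.7% and 94.8% in MSUS. MSUS replicates 6, 7 and 10 lay below each CTRL library, and MSUS replicate 8 did not. The difference was -1.76 percentage points (exact permutation test, p = 0.0857), and -1.96 without CTRL replicate 5 (p = 0.0857). It was -1.16 without MSUS replicate 7, and 0.0892 when filtered sequences alone were used (exact permutation test, p = 0.914). The log2 ratio of extending members to the sequences they extend was -5.33, -5.09, -5.26 and -5.06 in CTRL and -5.15, -5.12, -5.08 and -5.35 in MSUS. The groups overlapped, with the lowest value in MSUS and the highest in CTRL. The difference was 0.01 (exact permutation test, p = 0.971), and 0.05 without CTRL replicate 5.

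The groups of members described from here to the tests of single sequences were defined after the data were seen, and their values are given as description without a test. For each extending member, the body was taken as its most abundant 5' part that is itself a sequence of the table, with parts of 25 bases or more preferred, and the remaining 3' bases were taken as the added bases. A single string recurred among the added bases. Its count-weighted consensus starts TGGAATTCTCGG, and 3639 members (59.1%) with 1140232 counts (85.9%) carried at least 10 added bases with this string at 2 or fewer edits; they are called tail-bearing. Another 342 members with 97335 counts were 3' extensions of 1 to 9 bases, and 525 with 27967 counts were other 3' extensions. A shorter sequence extended at its 5' end accounted for 247 members with 19569 counts. No sequence of 25 bases or more lay inside the remaining 1408 members, which had 42401 counts. They took 0.0279%, 0.0229%, 0.0210% and 0.0244% of all counts in CTRL and 0.0580%, 0.0684%, 0.0284% and 0.0363% in MSUS. The lowest MSUS library, replicate 8, was just above CTRL replicate 1, and the groups did not overlap.

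Tail-bearing members took 0.886%, 1.06%, 0.809% and 0.888% of all counts in CTRL and 1.16%, 1.08%, 1.13% and 0.867% in MSUS. MSUS replicates 6, 7 and 8 were above the CTRL libraries and MSUS replicate 10 was within their range. They made up 3562 of the 5186 members of 46 to 49 nt, and 97.1% of the counts at 47 nt. Tails of 14 to 18 bases held 98.4% of the tail-bearing counts, and bodies of 30 to 33 bases held 98.9%. The 3639 members combined 175 bodies, from 117 families that share their first 20 bases, with 1572 distinct tails. They share their sequences in this way and are not independent of one another. The consensus string was present without an edit in 729 of these members, with 1 edit in 1937 and with 2 edits in 973. In CTRL, 31.5%, 33.8%, 30.9% and 31.7% of tail-bearing counts had no edit, and in MSUS 30.3%, 33.3%, 32.4% and 34.2%. The groups overlapped in this.

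The tails with the most counts are shown here because they differ at few bases and recur on unrelated bodies. They had 40844, 27386, 22243 and 21264 counts and stood on bodies of 23, 31, 30 and 27 families.
tail 1: TGGAATTCTCGGTG
tail 2: TGGAATTATCGGGTG
tail 3: TGGAATTCTCGGGG
tail 4: TGGAATTCTCGGGGG
The 3' adapter of the library kit begins, from general knowledge, with the same letters as the consensus. Whether the tails are adapter bases that trimming did not remove because of a base difference was not tested.

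Relative to their bodies, tail-bearing members were few, with 16.2 counts for each 1000 counts of the bodies over the whole table. Among the 41 bodies with at least 100000 counts the rate ran from 0.646 to 35.6, with a median of 9.47. Per library it was 13.9, 18.1, 14.7 and 14.8 in CTRL and 19.2, 15.7, 19.01 and 13.9 in MSUS. MSUS replicates 6 and 8 were the highest and MSUS replicate 10 was close to the lowest CTRL library.

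A few bodies carried most of the tails. Bodies 1 to 3, printed below, had the most tail-bearing counts. Body 6 is printed because, like body 3, it differs from body 1 by a substitution, marked by a capital. Bodies 4 and 5, with 25109 and 24727 tail-bearing counts, are each 1 base shorter than body 1 and are not printed in this list.
body 1: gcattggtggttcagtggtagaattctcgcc
body 2: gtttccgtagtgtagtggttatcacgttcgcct
body 3: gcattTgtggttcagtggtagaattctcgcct
body 6: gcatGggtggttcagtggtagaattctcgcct
Body 1, of 31 nt, had 14424382 counts of its own and 513916 counts on 1043 tail-bearing members, 45.1% of all tail-bearing counts. Body 2, of 33 nt, had 20650181 counts and 264804 with tails (23.2%). Body 3 differs from body 1 by G6T and body 6 by T5G, counted from the 5' end, and both end 1 base later. Body 3 had 148346 counts with tails, and body 6 had 18371. By their letters, body 1 resembles the 5' part of a glycine tRNA and body 2 that of a valine tRNA; for body 1 no reference sequence was held. Tail-bearing counts for each 1000 counts of body 1 were 27.6, 41.6, 30.2 and 28.6 in CTRL and 51.4, 32.3, 46.7 and 32.4 in MSUS. MSUS replicates 6 and 8 were the highest, and CTRL replicate 2 lay above the other MSUS libraries. For body 3 they were 40.2, 29.2, 29.0 and 40.5 in CTRL and 27.1, 57.9, 28.4 and 40.9 in MSUS, and here MSUS held both the highest and the lowest values.

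The most abundant member, of 47 nt, joins body 2 to tail 1. It had 3363, 4387, 2961 and 2515 counts in CTRL and 5154, 3583, 2648 and 2745 in MSUS, 27356 in total. MSUS replicate 6 was the highest and CTRL replicate 5 the lowest, and the groups overlapped. The log2 change was 0.16 (edgeR, adjusted p = 0.828). The next member, of 46 nt, joins body 1 to tail 2 and had 2132, 4008, 1283 and 2015 counts in CTRL and 3546, 5622, 768 and 1312 in MSUS. MSUS held both the highest and the lowest library. Its log2 change was 0.22 (edgeR, adjusted p = 0.858). Of the 10 members with the highest mean abundance, 9 were tail-bearing. The other 7 of these tail-bearing members had log2 changes from 0.08 to 0.55 (edgeR, adjusted p from 0.513 to 0.934). These changes do not cover the member of the 10 that is not tail-bearing, which is not reported here.

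Body 2 matched the mouse genome within the promoter windows of the RefSeq GRCm38.p6 annotation. The match lies on chromosome 13 at 23446182 to 23446214, on the minus strand. It forms the 5' end of the tRNA gene n-TVcac9, which spans 23446142 to 23446214. Copies outside the windows were not searched, so the counts of body 2 cannot be assigned to this gene alone. The genome and the most abundant member are set side by side to show that they part after the body, with capitals marking what follows it.
genome: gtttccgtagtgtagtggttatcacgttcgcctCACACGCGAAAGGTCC
member: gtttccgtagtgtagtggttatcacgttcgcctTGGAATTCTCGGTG
A body of 30 nt with 312288 counts matched the tRNA gene n-THgtg7 on chromosome 3 at 96452495 to 96452524 on the plus strand, and there too the genome and its most abundant tail-bearing member parted after the body.
genome: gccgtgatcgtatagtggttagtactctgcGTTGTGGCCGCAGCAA
member: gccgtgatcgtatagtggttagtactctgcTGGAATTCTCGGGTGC

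Few members matched these windows over their full length. Among the 6021 members without N, 4 did so, with 7171 counts. Most of these counts belong to a member of 35 nt with 6931 counts, printed because its full length is genomic, with its last base in capitals as the base it has beyond a sequence of 34 nt with 1518 counts.
member: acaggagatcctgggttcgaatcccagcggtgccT
Its match lies on chromosome 7 at 35234770 to 35234804 on the minus strand and ends where the tRNA gene n-TTagt9 ends, at 35234770. Copies outside the windows were not searched here either. Counts were 990, 1186, 825 and 795 in CTRL and 637, 1117, 751 and 630 in MSUS. The groups overlapped, with CTRL replicate 2 and MSUS replicate 7 the highest. A member of 37 nt with 26 counts lay in the promoter window of Bc1, outside any annotated tRNA gene. Of 1005 miRNA hairpins none held a member, and 0 members began with a mature miRNA. The windows cover a small part of the genome, so a member without a match may still be genomic.

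The 342 short 3' extensions were mostly of 1 base (63.2% of their counts). What lay beyond the shorter sequence was a single T in 45.4% of the counts of short extensions and a single A in 11.5%. The member of 35 nt with 6931 counts, genomic over its full length, is among those with T. Whether the last base of the others is encoded in the genome was not tested. In each library, T made up 50.8%, 43.6%, 50.6% and 42.4% in CTRL and 42.5%, 45.2%, 49.95% and 43.5% in MSUS, with overlapping groups. A pair of these short extensions share the same sequence of 34 nt with 347922 counts, which by its letters resembles 5S rRNA, as their first bases; they had 7251 and 6218 counts. They are printed for their added base, in capitals.
5S-like 1: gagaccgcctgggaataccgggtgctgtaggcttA
5S-like 2: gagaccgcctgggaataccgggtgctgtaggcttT
The first 5S-like member had 539, 949, 815 and 1937 counts in CTRL and 921, 958, 327 and 805 in MSUS, highest in CTRL replicate 5.

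At the 5' end, the bases CGTGG preceded 12 sequences with different starts, with 3585 counts in all, and CCGTGG preceded 11. An example pair is given to show the same 5 bases, in capitals, before bodies that differ by 1 base in length; the members had 1616 and 452 counts and the sequences inside them 781809 and 174939.
member 1: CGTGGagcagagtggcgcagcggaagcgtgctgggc
member 2: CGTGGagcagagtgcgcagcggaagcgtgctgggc
Where the added 5' bases come from was not tested.

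Some members held a second recurring string. The motif GAACTCCAGTCAC was found in 119 members with 4824 counts, of which 113 were found in 1 library. In 43 members it was followed by at least 6 more bases, and these 6 bases were the same within a library and different in each of the 8, for example ATCACG in CTRL replicate 1 and TAGCTT in MSUS replicate 10. No library held a second string at this place.

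Of the members of 45 to 49 nt with no sequence of 25 bases or more inside, 1194 held no N, no motif and no consensus string, and 1186 of these shared 20 bases or more with one another, on either strand, in 13 groups of at least 3. They had 32038 counts and a mean GC content of 44.96%, and none had more than 114 counts. Together they had 209, 164, 138 and 104 counts scaled by the library total (CPM) in CTRL and 450, 625, 204 and 251 in MSUS. MSUS replicates 6, 7 and 10 were above the CTRL libraries, and MSUS replicate 8 was just below CTRL replicate 1. What these members derive from was not tested.

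For single sequences, the quasi-likelihood test of edgeR called 0 of 916 members at an adjusted p under 0.05, and 0 of all 5513 sequences tested (0%). An unadjusted p under 0.05 was found for 111 members (12.1%; 12.4% of all sequences tested). Of these, 87 were higher in MSUS and 24 lower, 9.50% and 2.62% of the members, where over all sequences the shares were 6.44% and 5.97%. These counts depended on single libraries: 55 of 879 members tested (45 higher, 10 lower) were found without CTRL replicate 3. There were 66 of 859 (42 and 24) without CTRL replicate 1 and 67 of 865 (50 and 17) without MSUS replicate 8. With library totals in place of TMM there were 90 (59 and 31). For these leave-outs and this scaling, the share of all sequences at an unadjusted p under 0.05 was not counted. Whether the count over all sequences moved in the same way was not tested. The median log2 change was 0.24 over members and -0.03 over all sequences tested, and 69.5% of members had a value above 0, against 48.1% of all. With a library left out, the median over members ran from 0.12 without MSUS replicate 6 (all sequences -0.08) to 0.38 without CTRL replicate 2 (all sequences -0.04). The exact test of edgeR called 3 members (0.617% of all sequences) and DESeq2 called 6 (0.943%). The 5 members with the smallest p had log2 changes of 1.73, 2.07, -2.16, 1.78 and 1.43 (edgeR, adjusted p from 0.305 to 0.348). Members 1, 2 and 5 of these passed the count filter through the MSUS libraries alone and member 3 through the CTRL libraries alone, so the filter itself favoured a separation of their groups. Without CTRL replicate 5, the changes of members 1, 2, 4 and 5 of these were 1.67, 2.31, 1.77 and 1.59 (edgeR, adjusted p from 0.0828 to 0.148), and member 3 did not pass the count filter. The exact test of edgeR gave adjusted p values of 0.0405, 0.0426, 0.0115, 0.0776 and 0.0886, and DESeq2 gave 0.0256 for member 2 and 0.0364 for member 4. For members 1, 3 and 5 DESeq2 gave no adjusted p.

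Member 1 of these 5 had 7, 17, 7 and 8 counts in CTRL and 41, 23, 36 and 23 in MSUS. Member 2 had 14, 19, 7 and 20 counts in CTRL and 51, 50, 114 and 21 in MSUS, highest in MSUS replicate 8. Member 3, of 39 nt, had 31, 42, 21 and 27 counts in CTRL and 8, 11, 0 and 7 in MSUS. For members 1, 2, 3 and 5, an absence of overlap in counts follows from the filter. Member 4 had 1.83, 3.31, 2.48 and 2.57 CPM in CTRL and 6.22, 8.61, 16.3 and 2.61 in MSUS, and member 5 had counts of 17, 11, 6 and 15 in CTRL and 22, 31, 31 and 39 in MSUS. MSUS replicate 10 lay within the CTRL range for member 4. Members 1, 2, 4 and 5 are tail-bearing and are printed, with the tail in capitals, because they are the named members of this test.
test member 1: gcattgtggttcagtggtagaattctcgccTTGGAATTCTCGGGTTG
test member 2: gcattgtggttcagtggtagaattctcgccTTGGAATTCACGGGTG
test member 4: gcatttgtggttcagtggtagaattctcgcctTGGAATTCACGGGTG
test member 5: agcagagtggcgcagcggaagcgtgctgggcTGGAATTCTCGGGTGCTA

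Without CTRL replicate 5 the same test called 21 of 861 members, 20 higher in MSUS and 1 lower, where 2.34% of all 5218 sequences tested were called, 99 higher and 23 lower. With 3 CTRL libraries left, a sequence could pass the filter of 4 libraries through MSUS alone but not through CTRL alone. The filter was thus uneven between higher and lower values, and its part in the direction of the calls was not tested. It had the same form without CTRL replicate 1, 2 or 3. Without any other single library the test called 0 members. Of these 21, 8 ended in TGAATTCTCGGGTG and came from 6 families. Among all 861 members tested, 13 had this ending. The ending was picked from members called when CTRL replicate 5 was left out, so the values of its members follow in part from that choice and are not given by library.

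Summed over all sequences of 20 nt or longer with the same first 20 bases, members fell into 1721 families, of which 1410 held 1 member. The 5 families with the most member counts held 78.8% of them. The quasi-likelihood test of edgeR called 0 of 287 families holding a member at an adjusted p under 0.05, and 1 of all 1911 families (0.0523%). An unadjusted p under 0.05 was found for 61 families (21.3%; 20.9% of all), 38 of them higher in MSUS and 23 lower, where over all families the shares were 11.9% and 8.95%. The balance of the families holding a member turned in some settings. With families by the first 25 bases, 16 of 284 were higher and 47 lower. Without CTRL replicate 1, 13 of 281 were higher and 24 lower. Without CTRL replicate 3, 26 of 278 were found (11 higher, 15 lower), and without CTRL replicate 5, 84 of 273 (60 higher, 24 lower). Shares over all families at an unadjusted p were not counted in these settings, without a filter or with library totals. Whether the balance over all families turned as well was not tested. The median log2 change was 0.08 over the families holding a member and -0.07 over all, but -0.12 (all -0.065) with families by the first 25 bases and 0.0054 (all -0.13) without MSUS replicate 6. Without a filter it was 1.02 over all 1721 families holding a member (all 0.075), with 198 higher and 46 lower at an unadjusted p under 0.05, and with library totals 24 were higher and 23 lower. The exact test of edgeR called 10 (2.98% of all families) and DESeq2 called 15 (5.65%). Without CTRL replicate 5 the quasi-likelihood test called 40 of 273, 34 higher and 6 lower in MSUS. Over all families 9.98% were called, 143 higher and 39 lower. The filter was uneven here in the same way, and its part in these directions was not tested.

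Family 1 by member counts, GCATTGGTGGTTCAGTGGTA, had a log2 change of 0.08 and family 2, GTTTCCGTAGTGTAGTGGTT, one of 0.03 (edgeR, adjusted p = 0.845 and 0.958); without CTRL replicate 5 these were -0.019 and -0.084. Families 3 and 4 hold bodies 3 and 4, which are 2 edits and 1 edit away from body 1, held by family 1. Whether these families are variants of 1 RNA was not tested, so they should not be read as independent. Family 3, GCATTTGTGGTTCAGTGGTA, had 73186, 83520, 63297 and 100453 CPM in CTRL and 105562, 107916, 112914 and 96134 in MSUS. MSUS replicate 10 was below CTRL replicate 5, and the other MSUS libraries were above the CTRL libraries. Its log2 change was 0.46 (edgeR, adjusted p = 0.223), and 0.52 without CTRL replicate 5 (adjusted p = 0.136). Family 4, GCATTGTGGTTCAGTGGTAG, had 28351, 27922, 24340 and 41668 CPM in CTRL and 45456, 49410, 51663 and 52090 in MSUS, without overlap between the groups. Its log2 change was 0.76 (edgeR quasi-likelihood test, adjusted p = 0.108; edgeR exact test, adjusted p = 0.0418; DESeq2, adjusted p = 0.0110; edgeR quasi-likelihood without CTRL replicate 5, adjusted p = 0.0172). Members were 0.607% of its counts. Alone they had 123, 200, 130 and 217 CPM in CTRL and 378, 258, 373 and 252 in MSUS, also without overlap. Family 5, GAGACCGCCTGGGAATACCG, had 2296, 4342, 4726 and 10786 CPM in CTRL and 4054, 3408, 2048 and 5428 in MSUS, with CTRL replicate 5 far above the rest. Its log2 change was -0.49 (edgeR, adjusted p = 0.497), and without CTRL replicate 5 it was -0.0087.

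The 3 families with the smallest p each had an adjusted p of 0.108 by the quasi-likelihood test of edgeR. TAGTACTTGGATGGGAGACC had 6.66, 16.6, 11.9 and 10.3 CPM in CTRL and 3.05, 4.47, 3.53 and 4.04 in MSUS, without overlap, and a log2 change of -1.57. Its members alone, 19.01% of its counts, had 0.489, 1.36, 0.225 and 3.62 CPM in CTRL and 1.37, 2.07, 0.942 and 1.66 in MSUS, with overlap. GCATGTGGTTCAGTGGTAGA had 1811, 1734, 1428 and 2338 CPM in CTRL and 2744, 3358, 3092 and 3694 in MSUS, also without overlap, and a log2 change of 0.87. Its members alone, 0.106% of its counts, had 1.77, 2.21, 1.73 and 1.69 CPM in CTRL and 3.35, 2.85, 3.14 and 4.60 in MSUS, without overlap. TATGAGGCCCCGGGTTCGAT had 7.45, 11.4, 9.77 and 1.21 CPM in CTRL and 1.08, 2.85, 1.02 and 0.792 in MSUS, where CTRL replicate 5 lay within the MSUS range, and a log2 change of -2.40. Its members alone, 56.7% of its counts, had 2.75, 7.54, 6.01 and 0.643 CPM in CTRL and 1.08, 1.42, 0.471 and 0.317 in MSUS, with overlap. In this order, the adjusted p values were 0.00382, 0.0222 and 0.0162 by the exact test of edgeR, 0.00226, 0.00481 and 0.00481 by DESeq2, and 0.00818, 0.0168 and 0.000693 by the quasi-likelihood test of edgeR without CTRL replicate 5, where the log2 changes were -1.66, 0.95 and -2.76. Members of these families had 165, 305 and 299 counts.

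As a measure of blood cell content, miRNAs abundant in erythrocytes (miR-451a, miR-144, miR-16 and miR-92a) were summed. They had 7487, 7893, 11550 and 8314 CPM in CTRL and 4150, 4247, 3761 and 6673 in MSUS. Each CTRL library was above each MSUS library (exact permutation test, p = 0.0286, the smallest possible, not adjusted for the number of lists). Of the 4, miR-16 alone separated the groups, with 4153, 4474, 5893 and 3904 CPM in CTRL and 1946, 2109, 1882 and 3267 in MSUS. For miR-451a, miR-144 and miR-92a the groups overlapped. A list for platelets and myeloid cells (miR-223 and miR-126a) had 29.4, 19.6, 24.7 and 22.2 CPM in CTRL and 15.4, 25.3, 20.1 and 24.3 in MSUS (exact permutation test, p = 0.457). For muscle, miR-206 had 1.77, 1.49, 1.95 and 3.45 CPM in CTRL and 2.51, 3.50, 2.20 and 2.14 in MSUS (exact permutation test, p = 0.429). No member was among these sequences. Whether blood cell content had a part in the member values was not tested.

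Several limits apply. The table holds sequences above some minimum that is not stated for it, and rarer ones were not analysed here. Beyond the promoter windows and miRNA hairpins, no genome sequence and no set of tRNA or rRNA sequences was used. Names of tRNAs and 5S without a window rest on the letters alone. The class is set by length and mixes tail-bearing members with others, and where a body ends and a tail begins cannot be told when their bases coincide. Amplified reads without molecular identifiers were counted. With 4 libraries in each group, a p above the threshold does not show that groups were alike.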

How the data were processed

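Small RNA from serum of CTRL and MSUS males, with 4 libraries for each group, was analysed from the table of counts per unique sequence that the authors deposited; the authors prepared the libraries with the TruSeq small RNA kit, trimmed the reads (cutadapt 1.14 is named in the labels) and collapsed identical reads, without normalization. Libraries held 12445867 to 16733257 counts. Members are all sequences of 35 to 49 nt, and the lists and tests were chosen with earlier results on these data known. Members named were taken from the 10 with the highest mean CPM, the 5 with the smallest p, the 5 families with the most member counts and the 3 with the smallest p; a member that this rule names is not reported here, and others named were chosen after their values were seen.

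Shares, GC content, extension and log2 ratios were computed per library and compared by two-sided exact permutation tests. Extension means that a sequence shorter than 35 nt equals the first bases of the member. Single sequences, and families summed by the first 20 bases, were compared over all lengths by quasi-likelihood F-tests (edgeR 4.0.16, run under R 4.3.3), after a filter of more than 20 counts in at least 4 libraries, with TMM and Benjamini-Hochberg adjustment over all tested at 0.05. The tests were tested on simulated data. Bodies, tails (at least 10 bases, with the 12 consensus bases at 2 or fewer edits by edlib 1.3.9.post1 in Python 3.11.15), 5' additions, the motif, overlapping members and the shared ending were defined after the data were seen. The annotation was RefSeq GRCm38.p6, with promoter windows and miRNA hairpins searched for exact matches. The planned test of source classes was not made because 4 members matched the reference. For each miRNA of the lists, sequences starting with the mature sequence less its last 2 bases were summed. miR-486a, miR-486b, miR-122, miR-1a and miR-133a were not analysed here.

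Tried beside these were edgeR's exact test, a fit with DESeq2 1.42.0, scaling by library totals, scaling by the size factors of DESeq2, filterByExpr or no filter, robust estimation, families by the first 25 bases, each library left out in turn, the most abundant member left out, filtered sequences only, a lower bound of 36 nt, distinct sequences in place of counts, members weighted equally and a shorter sequence anywhere in the member. Leaving out tail-bearing members, and leaving out members of 46 to 49 nt, came later, once values were known. The main tests used all 8 libraries.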

Additional observations from a re-analysis of the deposited data

Results flagged for a closer look

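Each library's value was compared with the other 3 of its group, over 98 groups of 4 values, and 9 values lay apart from the rest; by chance about 1 in 20 groups would show such a value. CTRL replicate 5 was apart 4 times: in the GC content of member counts (53.5%, others 52.2% to 52.3%) and in the share of counts at 42 nt (0.00432%, others 0.000774% to 0.00129%), at 43 nt (0.00417%, others 0.000984% to 0.00146%) and at 44 nt (0.00208%, others 0.000308% to 0.000546%). At 46 nt CTRL replicate 3 was low (0.265%, others 0.344% to 0.350%), and at 47 nt CTRL replicate 2 was high (0.608%, others 0.437% to 0.460%). MSUS replicate 8 was low at 41 nt (0.00191%, others 0.00378% to 0.00395%). MSUS replicate 7 was high for the member of 46 nt that ranks 8 by mean CPM (209.8 CPM, others 83.2 to 95.9) and for the family TATGAGGCCCCGGGTTCGAT (2.85 CPM, others 0.792 to 1.08). What sets these libraries apart was not tested.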

How the results depend on the processing

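No paired analysis was possible because the CTRL and MSUS serum libraries share no replicate number. The share of counts on members was higher in MSUS under each alternative run, by 0.00248 percentage points without members of 46 to 49 nt, 0.0248 without tail-bearing members, and 0.131 (without CTRL replicate 3) to 0.233 (without MSUS replicate 10) with a library left out; the lowest exact permutation p of these was 0.0571. The ratio to 32 to 34 nt stayed above 0, from 0.08 without members of 46 to 49 nt to 0.33 without MSUS replicate 6, and was 0.086 without MSUS replicate 7. Other directions depended on the setting. The ratio to 28 to 31 nt was -0.072 without members of 46 to 49 nt, and ran from -0.13 without MSUS replicate 6 to 0.22 without MSUS replicate 10. The ratio of extending members to the sequences they extend was -0.15 without tail-bearing members and -0.19 without members of 46 to 49 nt, 0.14 with filtered sequences alone, and with a library left out ran from -0.039 without CTRL replicate 1 to 0.067 without MSUS replicate 10. The GC difference was 1.08 percentage points without members of 46 to 49 nt, and ran from -0.380 without MSUS replicate 10 to 0.101 without CTRL replicate 5; without tail-bearing members it was -0.796. The share on extending members was 0.0892 points higher in MSUS among filtered sequences, and was -11.0 without tail-bearing members and -5.18 without members of 46 to 49 nt (exact permutation tests, p = 0.0857 and 0.0571). With a library left out it ran from -1.16 without MSUS replicate 7 to -2.45 without MSUS replicate 8 (exact permutation test, p = 0.0286, the smallest that 35 arrangements can give). Of 916 members and 287 families holding a member, the exact test of edgeR called 3 and 10. Over all sequences and all families it called 0.617% and 2.98%. DESeq2 called 6 and 15, where 0.943% and 5.65% of all were called. The quasi-likelihood test of edgeR called 0 members and 0 families holding a member in its other settings, except without CTRL replicate 5. There it called 21 of 861 and 40 of 273, where 2.34% and 9.98% of all were called. An unadjusted p under 0.05 was found for 111 and 61 in the main setting (12.4% and 20.9% of all). The first family by member counts had log2 changes from -0.019 without CTRL replicate 5 to 0.12 without CTRL replicate 1. The next had -0.034 with library totals without TMM, and from -0.22 without MSUS replicate 6 to 0.15 without MSUS replicate 7. The median log2 change of members under library totals was 0.17 (all sequences -0.10), and without a filter 0.50 (all 0.05).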
